A study of Rattus norvegicus with 6 samples.

Results

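Chemokines, interleukins and their receptors were examined in rat flat pluripotent stem (fPS) cells and rat embryonic stem (ES) cells. The members were chosen by gene name, as all genes whose symbol begins with Ccl, Cxcl, Ccr, Cxcr, Ackr or Il followed by a number, with Il6st left out. They comprised 115 probe sets of 92 genes, out of 31042 probe sets and 14217 named genes in all, and where a gene had several, the one brightest on average over the 6 arrays stood for it. There were 27 chemokine ligands, 15 chemokine receptors, 25 interleukins and antagonists, and 25 interleukin receptors and binding proteins.

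The groups were 3 samples of fPS cells and 3 samples of ES cells, both of Sprague-Dawley rats with no genetic change named in the labels, and each was hybridised to 1 Affymetrix 3' expression array. In the labels a free-text description of the fPS samples reads embryonic stem cells too, and the groups follow the titles. Both groups share 1 protocol in the labels: a serum-free medium with human LIF, the GSK3 inhibitor CHIR99021 and the MEK inhibitor PD0325901, and maintenance in serum on mouse embryonic fibroblasts treated with mitomycin C, so that RNA of mouse feeder cells can be present. Whether the 3 samples of a group were grown as separate cultures is not said, and the p-values below thus cover the spread among these arrays alone, part or all of which may be technical.

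Chemokines are small secreted proteins that guide cell movement through G protein-coupled receptors, while atypical chemokine receptors (Ackr) bind chemokines without classical G protein signalling and remove them from the surroundings. Interleukins are secreted signals, best known from leukocytes, whose receptors mostly act through JAK kinases and STAT factors or, for the interleukin-1 family, through MyD88 and NF-kB. In pluripotent cells the related cytokine LIF uses the same JAK-STAT route, and CXCL12 with its receptors is known for guiding germ and progenitor cells in the embryo.

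Of the 92 genes, 3 passed the test over all probe sets (limma, Benjamini-Hochberg adjusted p under 0.05), a share of 3.26% where 0.858% of all 14217 genes passed. The atypical receptor Ackr3 and the interleukin-10 receptor chain Il10ra were higher in fPS cells (2.17% of members, against 0.570% of all genes). The interleukin Il36b was lower (1.09% of members, against 0.288%). In bulk samples, fewer cells of a type and less RNA per cell cannot be told apart. As the genes that passed, these 3 are shown with their promoter windows. They are credited to RefSeq, build GRCr8, and run from 250 bases before to 50 after the annotated start; Ackr3 lies at chr9:98247104-98247403 on the plus strand, Il10ra at chr8:54474737-54475036 on the minus strand and Il36b at chr3:27428629-27428928 on the minus strand. Capitals mark a TATA box (TATAAA, sense strand) in Ackr3 and a GAS element (TTCNNNGAA, both strands), the letters that STAT factors are known to bind, in Il36b.
Ackr3: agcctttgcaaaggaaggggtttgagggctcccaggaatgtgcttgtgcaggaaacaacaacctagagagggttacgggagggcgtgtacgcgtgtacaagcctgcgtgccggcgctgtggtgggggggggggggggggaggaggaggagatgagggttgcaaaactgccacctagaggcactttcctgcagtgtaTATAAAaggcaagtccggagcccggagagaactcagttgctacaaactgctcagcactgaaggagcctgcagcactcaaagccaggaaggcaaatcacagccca
Il10ra: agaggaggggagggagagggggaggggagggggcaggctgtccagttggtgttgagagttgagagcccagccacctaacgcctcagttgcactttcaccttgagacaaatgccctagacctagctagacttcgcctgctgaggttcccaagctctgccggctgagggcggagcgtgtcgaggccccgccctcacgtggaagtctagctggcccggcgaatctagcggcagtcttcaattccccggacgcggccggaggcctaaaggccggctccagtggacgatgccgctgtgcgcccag
Il36b: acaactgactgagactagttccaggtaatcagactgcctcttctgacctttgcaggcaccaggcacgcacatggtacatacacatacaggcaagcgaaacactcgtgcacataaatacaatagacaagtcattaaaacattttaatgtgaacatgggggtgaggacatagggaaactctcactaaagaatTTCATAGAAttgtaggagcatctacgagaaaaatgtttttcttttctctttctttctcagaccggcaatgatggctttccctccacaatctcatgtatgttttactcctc
The TATA box of Ackr3 began 54 bases before the start and the GAS letters of Il36b 60 bases before it. No capitals stand in Il10ra, as none of the letters searched occurred in that window. The search also covered the AP-1 site (TGANTCA, both strands) and the kappaB consensus (both strands), neither of which occurred in these 3 windows, and no matches there overlapped each other. Of the 92 members, 69 had a window in the table. A TATA box was found in 20.3% of these 69 and in 9.08% of all 27457 genes with a window, AP-1 letters in 14.5% and 7.33%, GAS letters in 13% and 8.68%, and the kappaB consensus in 18.8% and 4.16%. These matches describe letters only.

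Most members were dim. Only 8 of 92 (8.7%) lay above the array median, the middle intensity of all probe sets on that array, on all 6 arrays, against 55.0% of all genes. At the other end, 59 of 92 (64.1%) lay above it on 0 arrays, against 26.5% of all genes, with mean intensities between 1.15 and 23.1. The array medians ran from 36.2 to 45.3, and no detection calls were at hand, so a value below them is not distinguished here from background. The number of members above the median was 20, 17 and 22 on the fPS arrays and 18, 16 and 17 on the ES arrays. The 8 were the ligand Cxcl14, the chemokine receptor Cxcr1, and 6 interleukin receptor genes, Il3ra, Il1r2, Il10rb, Il9r, Il17ra and Il1rap. Ackr3, Il10ra and Il15 lay above the median on all 3 fPS arrays and on 0 ES arrays. For Il15 the margin on fPS replicate 3 was narrow, at 37.0 against an array median of 36.2. This split was not counted over all genes, so no share stands beside it and no direction is read from it. The plot of levels by class shows how few members rise out of the lower range.

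**Figure D1:**
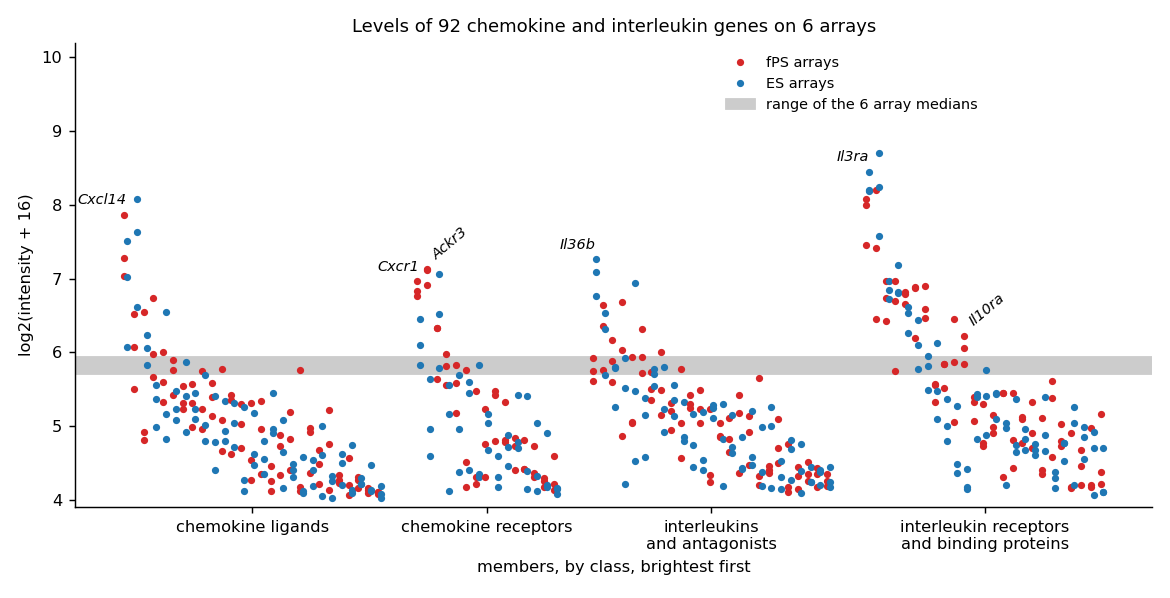
Each column is 1 of the 92 members, sorted by mean within its class, with log2(intensity + 16) on the y axis; red points are the 3 fPS arrays, blue points the 3 ES arrays, and the grey band spans the array medians from 36.2 to 45.3. Most members, 59 of 92, sit under the median on every array, and the brightest gene of each class and the 3 called genes are named.

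Among the chemokine receptors, Ackr3, which binds CXCL12 and CXCL11, was the one gene of 15 that passed. Its intensity was 105, 123 and 124 on the fPS arrays, against 15.2, 8.09 and 33.7 on the ES arrays. All fPS arrays lay well above all ES arrays, and above the array median, which no ES array reached. The log2 change was 1.99 (SE 0.283, limma adjusted p = 0.0335), a fold of 3.98 on the scale of log2(intensity + 16), which understates changes of dim probe sets. With 1 array left out the log2 change stayed between 1.76 and 2.28, but the call was lost each time. The adjusted p of limma was 0.0505, 0.179 and 0.0947 without fPS replicates 1, 2 and 3 and 0.142, 0.0807 and 0.0713 without ES replicates 1, 2 and 3. Over all genes the 122 calls also fell, to between 0 and 93 without 1 array. With pseudocounts of 1 and 64 in place of 16 the log2 change of Ackr3 was 2.78 and 1.14, and neither passed (limma adjusted p = 0.142 and 0.0516).

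CXCL12, the main ligand of Ackr3, went the other way in its measured values without passing. Cxcl12 had 75.5, 29.3 and 51.0 on the fPS arrays, against 256, 81.6 and 183 on the ES arrays. The groups did not overlap, and the ES arrays spread widely. Its log2 change was -1.42 (SE 0.402, limma adjusted p = 0.144). When the dimmest 50% of probe sets were left out, which reduces the number of tests, it passed (limma adjusted p = 0.0449). A second of its 3 probe sets had 67.1, 38.4 and 48.8 in fPS cells, against 141, 74.0 and 202 in ES cells (log2 change -1.13), while the dimmest had a log2 change of -0.14 with overlapping groups. Without 1 array in turn the log2 change of the first lay between -1.83 and -1.10. Cxcr4, the signalling receptor of CXCL12, was low, with 32.0, 40.9 and 20.4 in fPS cells, against 35.8, 4.76 and 15.1 in ES cells, and its groups overlapped (log2 change 0.52, SE 0.343). Only 1 of these 6 values, fPS replicate 2, lay above its array's median.

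**Figure D2:**
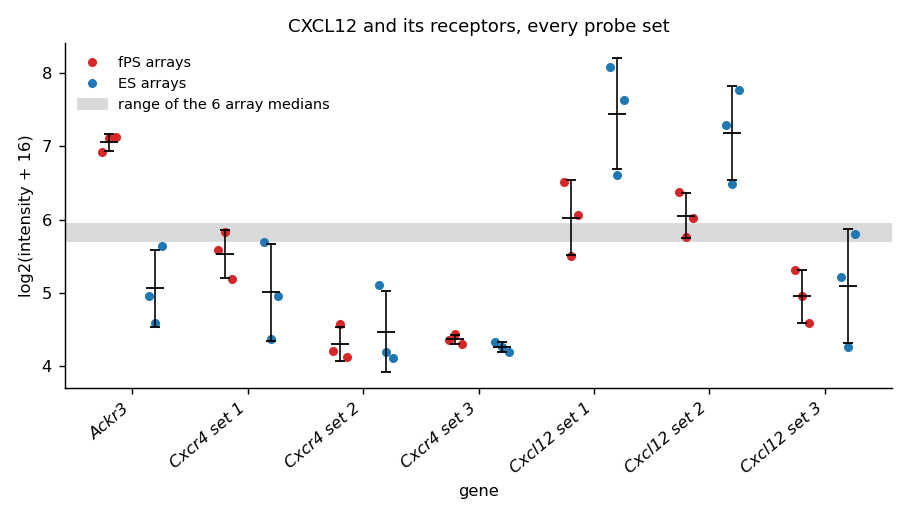
Every probe set of Ackr3, Cxcr4 and Cxcl12, with log2(intensity + 16) on the y axis; red points are fPS arrays, blue points ES arrays, black marks the group mean ± SD (n = 3), and the grey band the range of array medians. Ackr3 lies at 105 to 124 on fPS arrays and at 8.09 to 33.7 on ES arrays, while Cxcl12 sets 1 and 2 are lower on all fPS arrays.

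Of the other chemokine receptors, Cxcr1, a receptor for CXC chemokines that attract neutrophils, was the brightest of its class. It had 109, 97.7 and 92.5 on the fPS arrays, against 40.9, 71.7 and 52.6 on the ES arrays, without overlap; the difference, 0.72 in log2 (SE 0.226), missed the threshold (limma adjusted p = 0.177). Its ligand Cxcl6, measured at 4.36 to 24.4 in fPS cells and 4.45 to 11.8 in ES cells, stayed under the median on every array. Ackr1, the Duffy antigen that binds many chemokines, had 47.0, 31.0 and 40.1 in fPS cells, against 31.0, 20.0 and 1.32 in ES cells (log2 change 0.83, limma adjusted p = 0.308), with fPS replicate 2 and ES replicate 1 nearly level. Ccr4, a receptor of T cells for CCL17 and CCL22, had 26.9, 11.7 and 28.5 in fPS cells, against 2.11, 3.87 and 8.20 in ES cells. That separation (log2 change 0.87, adjusted p = 0.153) lay under the median throughout, and its ligands Ccl17 and Ccl22 had log2 changes of -0.16 and -0.04. Cxcr5, the receptor of CXCL13 on B cells, had 64.2, 33.8 and 64.3 in fPS cells, against 118, 39.2 and 75.7 in ES cells, with overlap, and Cxcl13 was dim in both.

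Among 27 chemokine ligands, 0 passed by limma, and 1 had a higher and 2 a lower value at an unadjusted p under 0.05 (3.7% and 7.41%, against 8.59% and 8.88% of all genes). Cxcl14, an epithelial chemokine, was the brightest, with 115, 140 and 217 in fPS cells, against 114, 166 and 51.5 in ES cells, and the groups overlapped (log2 change 0.53, SE 0.379). Ccl5, which attracts T cells and monocytes, had 34.7, 47.2 and 90.9 in fPS cells, against 25.4, 31.2 and 15.7 in ES cells. Its groups did not overlap, with fPS replicate 3 the highest, and the log2 change was 0.82 (SE 0.308, limma adjusted p = 0.248). Ccl2, which attracts monocytes through Ccr2, had 5.99, 3.19 and 1.42 in fPS cells, against 15.0, 13.9 and 27.6 in ES cells, lower on all fPS arrays at levels far below the median (log2 change -0.82, adjusted p = 0.139). Its relative Ccl7 had 24.1, 32.7 and 48.4 in fPS cells, against 12.4, 19.7 and 77.9 in ES cells. For Ccl7 the highest array of each group was replicate 3, which was also the array of highest collagen signal in each group (mean log2 value of 7 collagen genes 7.47 in fPS and 7.67 in ES replicate 3, against 5.60 to 6.59 elsewhere). Its log2 change was 0.13, and -0.064 with the collagen level as a covariate; neither passed. Ccl27, a skin chemokine, had 77.3, 14.4 and 12.0 in fPS cells, against 59.1, 50.9 and 40.7 in ES cells, where the fPS arrays disagreed among themselves. The inflammatory ligands Cxcl1, Cxcl2 and Cxcl3 lay under the median on all 6 arrays, with log2 changes of 0.46, 0.50 and 0.03.

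Il10ra, the chain of the interleukin-10 receptor that binds the ligand, was 1 of 25 genes for interleukin receptors and binding proteins to pass. It had 50.8, 58.7 and 41.3 on the fPS arrays, against 1.75, 5.43 and 2.03 on the ES arrays. The fPS arrays were above the array median and all ES arrays near the bottom of the scale. The log2 change was 1.79 (SE 0.209, limma adjusted p = 0.0305), a fold of 3.47 on the log2(intensity + 16) scale. The second probe set of the gene did not show this: it had 25.3, 16.4 and 11.2 in fPS cells, against 28.9, 16.8 and 15.6 in ES cells, a log2 change of -0.12. On every ES array it was the brighter set, so the first set came to stand for the gene through its fPS values. With the mean of both sets the log2 change of Il10ra was 0.84 (limma adjusted p = 0.0939). The call held without fPS replicate 1 (limma adjusted p = 0.0418) and was lost without fPS replicates 2 or 3 (0.179 and 0.0847) and without ES replicates 1, 2 or 3 (0.132, 0.0576 and 0.0971), while the log2 change lay between 1.70 and 1.89. With pseudocounts of 1 and 64 it was 3.75 and 0.77 (adjusted p = 0.132 and 0.0523).

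The partner chain Il10rb, shared with receptors of other interleukins and interferons, differed by less than the spread between arrays. It had 109, 91.1 and 70.2 in fPS cells, against 99.4, 89.8 and 109 in ES cells (log2 change -0.13, SE 0.219, groups overlapping). The ligand Il10 had 1.70 to 5.78 in fPS cells and 1.06 to 11.0 in ES cells, and lay under the median on every array.

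The brightest member of all was Il3ra, the ligand-binding chain of the interleukin-3 receptor, which stood at the 69.9 percentile of all genes by mean level. It had 239, 255 and 159 in fPS cells, against 334, 278 and 277 in ES cells; the groups did not overlap, but the difference did not pass (log2 change -0.44, SE 0.236, limma adjusted p = 0.432). Il1r2, a decoy receptor that takes up interleukin-1 without signalling, had 279, 155 and 71.5 in fPS cells, against 401, 287 and 176 in ES cells. The arrays of each group differed as much as the groups did (log2 change -0.82, SE 0.449). Il9r, the interleukin-9 receptor, had 109, 87.9 and 38.0 in fPS cells, against 96.2, 97.0 and 130 in ES cells, and overlapped. Il17ra, a receptor chain for interleukin-17, had 84.8, 96.7 and 94.9 in fPS cells, against 82.3, 61.1 and 76.5 in ES cells. Its groups did not overlap, by a narrow margin, and it did not pass (log2 change 0.28, SE 0.202, limma adjusted p = 0.571). Il11ra1, the receptor of the LIF relative interleukin-11, had 42.4, 17.2 and 72.0 in fPS cells, against 4.67, 6.43 and 22.7 in ES cells, where the highest ES array exceeded the lowest fPS array (log2 change 1.08, SE 0.385, adjusted p = 0.223).

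Il36b, an agonist of the interleukin-1 family best known from epithelia, was the one interleukin of 25 that passed. Its intensity was 44.5, 32.9 and 38.0 on the fPS arrays, against 137, 120 and 92.3 on the ES arrays. Every fPS array lay below every ES array, and the ES arrays were all above the median. The log2 change was -1.28 (SE 0.220, limma adjusted p = 0.0457), a fold of 0.413. The adjusted p of limma was 0.0673, 0.223 and 0.115 without fPS replicates 1, 2 and 3 and 0.182, 0.117 and 0.0971 without ES replicates 1, 2 and 3. The call was thus lost each time, with log2 changes from -1.42 to -1.16. It was also lost with pseudocounts of 1 and 64 (log2 change -1.57 and -0.81, adjusted p = 0.153 and 0.0572). With the collagen level of each array as a covariate the log2 change was -1.23 and the call was lost (limma adjusted p = 0.0568). Over all genes the 122 calls became 61 with that covariate, and 0 to 93 without single arrays.

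Of 5 receptor genes of the interleukin-1 family 0 passed by limma, and they did not share a direction: Il1r1, Il1rl1 and Il1rl2 had higher values in fPS cells (unadjusted p under 0.05), the decoy Il1r2 lower ones (-0.82 in log2), and Il1rap differed by probe set. Il1r1, which signals for interleukin-1, had 80.4, 72.8 and 103 in fPS cells, against 45.6, 28.9 and 40.1 in ES cells, with no overlap (log2 change 0.90, SE 0.225, limma adjusted p = 0.102). It passed (limma adjusted p = 0.0494) once the dimmest 50% of probe sets were left out, but its other 2 probe sets, both dimmer, had log2 changes of 0.07 and 0.51 with overlapping groups. Il1rl2, the receptor for interleukin-36, had 41.3, 41.4 and 29.6 in fPS cells, against 16.1, 11.9 and 25.4 in ES cells, again without overlap (log2 change 0.67, adjusted p = 0.209). Il1rl1, the receptor for interleukin-33, had 25.5, 32.7 and 7.98 in fPS cells, against 4.86, 3.65 and 1.85 in ES cells, all below the median (log2 change 0.91, adjusted p = 0.176). A second, dimmer probe set of Il1rl1 had a log2 change of 0.22 with overlapping groups. The shared chain Il1rap had a log2 change of 0.55 in its brighter probe set and of -0.74 in its dimmer one, so the 2 disagreed in sign. The ligands Il1a, Il1b and Il33 stayed under the median on all arrays, with log2 changes of 0.09, 0.15 and -0.20. The antagonist Il1rn was above it on 1 array, ES replicate 3, at 106, against 7.16 and 28.6 on the other ES arrays.

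**Figure D3:**
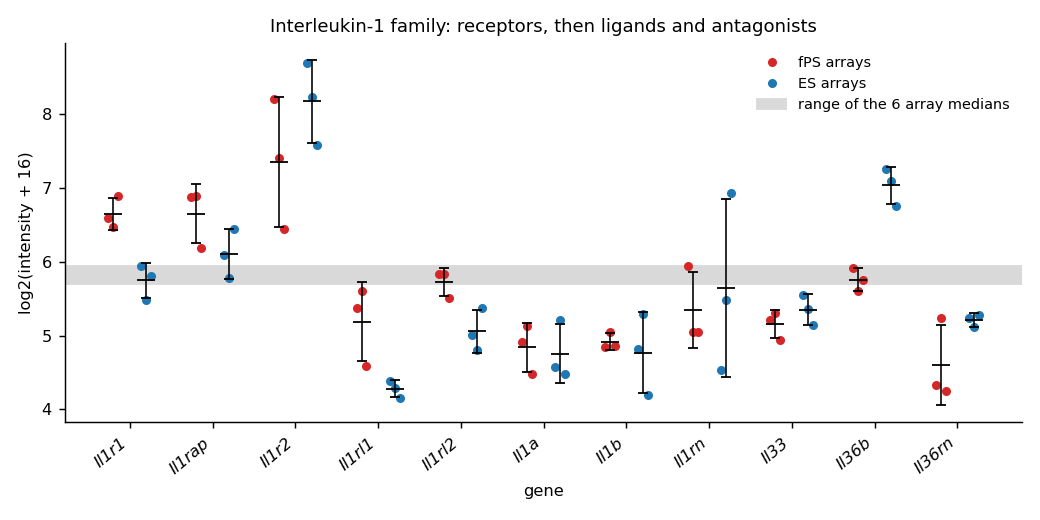
Receptors, then ligands and antagonists, of the interleukin-1 family, with log2(intensity + 16) on the y axis; red points are fPS arrays, blue points ES arrays, black marks the group mean ± SD (n = 3) and the grey band the range of array medians. The fPS points of Il1r1, Il1rl1 and Il1rl2 lie above the ES points, those of Il36b (32.9 to 44.5, against 92.3 to 137) below, and Il1rn is high on 1 ES array.

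Other interleukins did not pass. Il15, a growth signal of lymphocytes, had 64.1, 45.5 and 37.0 in fPS cells, against 25.6, 19.5 and 7.99 in ES cells, without overlap (log2 change 0.96, SE 0.273, limma adjusted p = 0.144). Il6, which signals through the same gp130 chain as LIF, had 22.0, 26.8 and 23.3 in fPS cells, against 19.7, 10.8 and 5.87 in ES cells, under the median on every array (log2 change 0.54, adjusted p = 0.322), and its receptor Il6r had a log2 change of -0.11. Il34, a ligand of the receptor Csf1r, varied more within groups than between them, with 86.5, 49.5 and 13.1 in fPS cells, against 44.8, 29.8 and 2.50 in ES cells. Il18, a family member that activates interferon production, had 83.9, 66.3 and 38.3 in fPS cells, against 63.5, 35.6 and 77.1 in ES cells, and overlapped. Il12b, the chain shared by interleukins 12 and 23, and its partner Il23a had log2 changes of 0.27 and -0.14.

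Over the whole list, 12 members had higher and 3 lower values in fPS cells at an unadjusted limma p under 0.05 (13% and 3.26%), where 8.59% and 8.88% of all genes did. The groups did not overlap for 12 members higher and 4 lower in fPS cells (13% and 4.35%), against 11.3% of all genes in each direction. The share of members with higher values was thus somewhat above that of all genes by unadjusted limma p, and near it by overlap. The shares with lower values were below those of all genes. These differences in share were not tested. The median log2 change of the 92 members was 0.069, beside -0.000046 over all genes. It was 0.0086 beside -0.060 over all genes after centring each array on its median, and -0.0086 beside 0.014 after quantile normalization, where it lay below that of all genes. The 63 members not named by the rule had log2 changes between -0.61 and 0.55. Of 17 members with several probe sets, 8 had probe sets that differed in sign. The count of 3 called members was 1 without fPS replicate 1 and to 0 without any other single array, where limma still gave 12 to 16 members at an unadjusted p under 0.05.

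**Figure D4:**
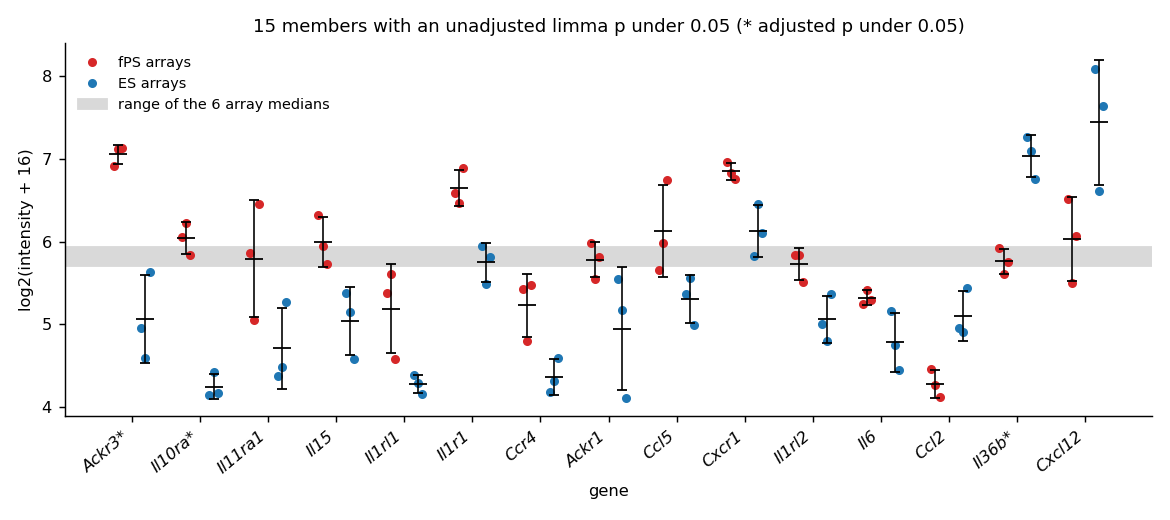
The 15 members with an unadjusted limma p under 0.05, ordered by log2 change, with log2(intensity + 16) on the y axis; red points are fPS arrays, blue points ES arrays, black marks the group mean ± SD (n = 3) and stars an adjusted p under 0.05. Ackr3 and Il10ra are separated most among the 12 with higher fPS values, and Ccl2, Il36b and Cxcl12 are the 3 with lower ones.

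**Figure D5:**
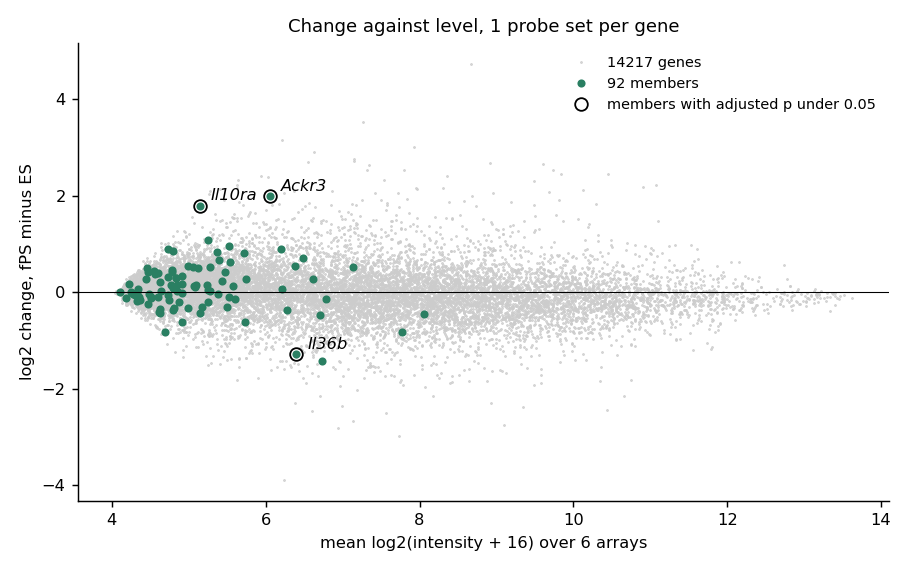
Log2 change of fPS minus ES cells (y axis) against mean log2(intensity + 16) over 6 arrays (x axis), with 14217 genes as grey points, the 92 members in green and the 3 called members circled. The members gather at the dim end, and the called genes are Ackr3 (1.99), Il10ra (1.79) and Il36b (-1.28); Cxcl12 (-1.42), which did not pass, lies lower than Il36b.

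Genes on the signalling routes of these receptors were read from 4 lists. Of 30 measured genes of NF-kB and innate signalling, 2 rose, 0 fell and 28 did not pass, while at an unadjusted p under 0.05 there were 8 higher and 1 lower, with a median log2 change of 0.12. Over all genes 0.570% rose and 0.288% fell, and 8.59% had higher and 8.88% had lower values before adjustment (p under 0.05). The adhesion protein Icam1, a classical NF-kB target, had 340, 553 and 691 in fPS cells, against 93.2, 122 and 89.9 in ES cells, a log2 change of 2.16 (SE 0.284, limma adjusted p = 0.0332). The NF-kB inhibitor Nfkbia had 267, 275 and 535 in fPS cells, against 71.4, 76.9 and 112 in ES cells, a log2 change of 1.82 (SE 0.305, adjusted p = 0.0432). Nfkbiz, a nuclear modulator of NF-kB, and the subunit Nfkb2 differed by 1.31 and 1.20 in log2 (limma adjusted p = 0.144 and 0.0948). The 1 lower gene was the subunit Nfkb1, with 100, 65.9 and 43.2 in fPS cells, against 109, 103 and 159 in ES cells. Its log2 change was -0.74 (limma adjusted p = 0.272). Of the 30 genes 19 had positive and 11 negative log2 changes, where 50% of all genes were positive. Of 34 other cytokines and receptors 1 rose and 0 fell. The 1 was the interferon receptor chain Ifnar2, with 250, 238 and 253 in fPS cells, against 82.1, 95.8 and 73.8 in ES cells. Its log2 change was 1.40 (SE 0.197, limma adjusted p = 0.0335). These values are from the brighter of its 2 probe sets, and the other is not given here. In that list 6 genes were higher and 0 lower at an unadjusted limma p under 0.05. Among them Tnfrsf12a and Fas, receptors of the TNF family, differed by 1.39 and 0.91 in log2 (limma adjusted p = 0.0550 and 0.169). The median of the list was 0.18. Of 18 JAK-STAT genes 0 passed by limma and 2 were higher at an unadjusted p under 0.05, the feedback inhibitor Socs3 and the kinase Jak1, with 0.77 and 0.67 (median 0.15), a share near the 8.59% of all genes. Of 17 partners of chemokine signalling 0 passed and 2 were higher at that level, Rgs16 and Rgs2, which limit G protein signals, with 1.24 and 0.73 (median 0.18), again near that share. The 3 calls in these lists numbered 2 without fPS replicate 1 and 0 without any other single array.

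Markers of cell types were read on the same arrays, with 8.59% of all genes higher and 8.88% lower in fPS cells at an unadjusted limma p under 0.05. Of 13 measured markers of pluripotent cells, 11 lay above the median on all 6 arrays, while Pou5f1 and Nanog were not analysed here. At that level 1 was higher (Nr0b1) and 2 were lower, Sox2 with 1281 to 2838 in fPS cells and 3266 to 4618 in ES cells, and Lin28a with 351 to 669 in fPS cells and 866 to 1559 in ES cells (log2 change -1.30, limma adjusted p = 0.0933). Of 18 leukocyte markers 13 were above the median on 0 arrays, and 6 were higher and 1 lower at that level. The 6 were Cd68, which averaged 110 in fPS cells and 48.1 in ES cells, Coro1a, Aif1, Mrc1, Csf1r and Cd14. Of these, Coro1a, Aif1, Mrc1 and Csf1r lay above the median on 0 arrays and Cd14 on 2. The lower one was Laptm5, which averaged 64.5 in fPS cells and 151 in ES cells. The defining leukocyte marker Ptprc (CD45) had 1.48 to 12.9 in fPS cells and 1.53 to 9.36 in ES cells. The summed leukocyte intensity, in which Laptm5 opposes the 6, was 426 to 532 in fPS cells and 372 to 460 in ES cells. Of 23 fibroblast markers 4 were higher and 1 lower at that level, the higher ones being Sparc, Postn, Pdgfra and Fbln1 with log2 changes of 1.46, 1.20, 1.12 and 0.67, and the lower one Col5a1 with -0.63. Their sum, largely from Fn1 and Timp1, was 7840 to 9205 in fPS cells and 7164 to 10583 in ES cells. Of 10 markers of extraembryonic endoderm 6 were higher and 0 lower, a larger share than the 8.59% of all genes, led by Sox17 with 192 to 270 in fPS cells and 52.0 to 110 in ES cells (log2 change 1.44, limma adjusted p = 0.0552) and Gata4 with 50.9 to 67.7 in fPS cells and 17.3 to 21.8 in ES cells (1.05, adjusted p = 0.0560). The sum of the 10 was 1932 to 2393 in fPS cells and 1296 to 2280 in ES cells. Of 7 endothelial markers 0 were higher or lower at that level, and after adjustment 0 markers of any of these lists passed. The part of these cell types in the results was not tested, except that with the collagen level as a covariate Ackr3, Il10ra and Il36b had log2 changes of 1.91, 1.82 and -1.23 (limma adjusted p = 0.0492, 0.0492 and 0.0568).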

How the data were processed

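The authors deposited 1 intensity on a linear scale for every probe set of each array. How probes were summarised, corrected for background and scaled is a point not given in the sources used here. Among its entries the table held 31099 probe sets, of which 57 controls were left out, and 0 further columns. Symbols came from the platform annotation: 20826 probe sets had 1 symbol, 436 several and 9780 none. The 2 probe sets that carry Il13ra1 beside a second symbol were left out.

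Values were tested as log2(intensity + 16) with limma 3.58.1 (lmFit, eBayes) in R 4.3.3, without further normalization or filter, with Benjamini-Hochberg adjustment over 31042 probe sets and a threshold of 0.05. Figures used matplotlib 3.10.9 in Python 3.11.15. Simulated data served to check the fit. With 3 arrays a group, array number sets the precision, and pairs of arrays correlated at 0.932 to 0.972 over all probe sets.

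The members and lists were chosen with earlier results of these data known. The rule for named members took those with an unadjusted p under 0.05 and, in each class, the 5 brightest and the 3 with the largest change, 29 in all. Partner ligands and receptors and further members were named beside them, and in each related list the called genes and the 2 largest changes at an unadjusted p under 0.05. Alternatives were quantile normalization, median centring, other pseudocounts, filters on dim probe sets, trend and robust variances, the replicate block, the mean over probe sets, leaving out unspecific probe sets, a collagen covariate and leaving out arrays. Same-numbered samples deviated together with correlations of 0.151, 0.020 and 0.0748, and differently numbered ones with correlations from -0.145 to 0.0545. The labels do not say what the numbers mean, so they were not taken as pairs. Whether they mark a shared batch is not known.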

Additional observations from a re-analysis of the deposited data

How the results depend on the processing

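The 3 called members were also called after quantile normalization, median centring, the 30% filter on dim probe sets, trend and robust variances and without unspecific probe sets. For Il10ra, passing that filter on mean level is no separate support, as its mean rests on the fPS values. The 50% filter left 16 members and called 4, Ackr3, Il36b, Cxcl12 and Il1r1, with Il10ra removed by the filter. Ackr3 lay above the array median on its fPS arrays alone, so passing the 50% filter is no separate support for it either. The mean over probe sets called 2, without Il10ra. The collagen covariate and the replicate block each called 2, without Il36b (limma adjusted p = 0.0568 and 0.0708). What the replicate numbers stand for is not said in the labels. The count was 0 with a pseudocount of 1, 0 with a pseudocount of 64, 0 without both replicates 3 (fPS and ES together), and 0 to 1 without single arrays; limma gave 15, 13, 18 and 12 to 16 members at an unadjusted p under 0.05 there. The 3 called genes of the related lists became 0 with a pseudocount of 1, 1 with a pseudocount of 64, 6 and 7 without the dimmest 30% and 50% of probe sets, 5 with trend and robust variances, 0 without both replicates 3 and 0 to 2 without single arrays. The count over all genes (122, 81 of them higher) was 203 (96 higher) with centred arrays, 416 and 506 with the filters on dim probe sets, 358 with trend and robust variances, 64 with the replicate block, 61 with the collagen covariate, 26 with a pseudocount of 64, 0 with a pseudocount of 1, 0 to 93 without single arrays and 0 without both replicates 3. The cause was not tested. The 8 members above the median were 6 to 10 in every alternative. Among named members, signs changed for 5 that did not pass: Ccl7 (-0.064 with the collagen covariate, -0.21 to 0.65 without single arrays), Il10rb (-0.26 to 0.0070 without single arrays, 0.065 without both replicates 3), Il18 (-0.17 to 0.32 without single arrays), and Cxcl14 and Il9r (-0.10 and 0.017 without both replicates 3). Dim probe sets limit these results: 73 of 92 members had a mean below the lowest array median.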

Other observations

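By the chromosome of each gene in the RefSeq table, 5 of the 12 members with higher fPS values at an unadjusted limma p under 0.05 lie on chromosome 9: Ackr3, Cxcr1, Il1r1, Il1rl1 and Il1rl2. This was noticed after the values were seen. Chromosome 9 carries 9 members, whose median log2 change was 0.67, while its 564 genes had a median of -0.0087, and 9.04% of them were higher at that level, against 8.59% of all genes. Il1r2, Il1r1, Il1rl2 and Il1rl1 lie next to each other there in that order, apart from other genes between the first pair, and Il1r2, at 1 end, had a log2 change of -0.82. Chromosome 10 carries the most members, 16, with a median log2 change of 0.18, and 1 higher and 1 lower at that level.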
